A study of Mus musculus with 12 samples.

Results

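Forkhead transcription factors are DNA-binding proteins that share the forkhead domain, a winged helix that reads DNA mainly through its recognition helix. Members were taken as all gene symbols of the count table made of Fox, a subfamily letter from a to s and a number, which gave 45 genes of 35602 symbols. RNA was sequenced from cultured fibroblasts of mouse embryos (MEFs), a mesenchymal cell type that makes connective tissue, in 12 libraries of 3 per group. The groups were Ezh2a mutant MEFs, wild-type MEFs from littermates of the Ezh2a mutant, Ezh2b mutant MEFs, and wild-type MEFs from littermates of the Ezh2b mutant. Ezh2 encodes the methyltransferase of Polycomb repressive complex 2, which places the repressive mark H3K27me3 on chromatin. The labels do not give the alleles behind the names Ezh2a and Ezh2b, the age or strain of the embryos, or whether the libraries of a group came from separate embryos or cultures. Tests below thus weigh differences only against the scatter among these libraries, part of which may be technical.

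Forkhead genes act in tissue patterning and in cell upkeep. FOXF, FOXC, FOXD and FOXL1 proteins shape mesenchyme in development, and Foxf1 and Foxf2 are known to respond to hedgehog signals in the mesenchyme of gut and lung. FOXO proteins switch on stress and starvation genes and are held in the cytoplasm by the kinase AKT, while FOXM1 drives genes of late cell division. Several developmental forkhead genes lie in gene clusters and are known Polycomb targets in other cells.

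Libraries held between 28811482 and 54070380 counts, and levels below are CPM, which put all libraries on the same total, after TMM scaling, a correction for differences in RNA composition between libraries. Ezh2 itself averaged 14.5 ± 0.554 CPM (SD, n = 3) over Ezh2a mutant and 30.3 ± 0.201 in Ezh2a wild-type libraries, a log2 fold change of −1.07 (SE 0.053, edgeR quasi-likelihood adjusted p = 3.38e-11). It stood at 35.1 ± 1.43 CPM in Ezh2b mutant and 35.0 ± 1.02 in Ezh2b wild-type libraries, with a log2 fold change of 0.004 (95% interval −0.095 to 0.10), so the gene total does not check the Ezh2b label. All 12 fibroblast markers were detected in every group, at 5.87% to 6.90% of counts. The Ezh2b wild-type replicate 3, the deepest library, stood apart from the others of its group (mean chi-square per gene 12.0 and 13.1, against at most 4.89 for every other pair within a group). The wild-type MEFs of both sets also differed from each other, with 20.4% of 15708 tested genes higher and 21.8% lower in the Ezh2b than in the Ezh2a wild type.

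The sequences of 7 members are shown for the part of the forkhead domain that contacts DNA, to show which bases differ there. Each line gives 30 coding bases at the start of the recognition helix, read by a script from the GENCODE M21 transcripts, with capitals at the bases that differ from Foxf1.
Foxf1: tggaagaactccgtgcgccacaacctgtcg
Foxf2: tggaagaactccgtgcgccacaacctCtcg
Foxl1: tggCagaacAGcAtCcgccacaacctgtcg
Foxc1: tggCagaacAGcAtAcgGcacaacctCtcg
Foxc2: tggCagaacAGcAtCcgccacaacctgtcA
Foxd1: tggCagaacAGcAtCcgTcacaacctgtcg
Foxm1: tggaagaactcTAtTcgTcacaacctTtcT
The pattern used to find this stretch was present in 35 of 45 members, and in 24 of the 25 that could be tested. Those found differed from Foxf1 at 1 to 10 bases, with Foxf2 at 1 and Foxp2 at 10. The pattern fixed most amino acids of the stretch, so the likeness of these lines is partly set by the search. Members without the pattern were not compared. Over whole transcripts of tested members, runs of identical bases reached 53 bases for Foxc1 and Foxc2, 47 for Foxd1 and Foxd2 and 41 for Foxf1 and Foxf2. How reads within such runs were assigned is not given in the sources used here.

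Of the 45 members, 25 passed the filter on low counts and 20 did not. A gene had to exceed about 0.314 CPM, or 10 counts at the median depth, in at least 3 libraries. No count in any library was found for 9 genes: Foxb1, Foxb2, Foxe3, Foxi2, Foxi3, Foxl3, Foxn4, Foxr1 and Foxr2. A further 11 were detected but not tested: Foxa2, Foxa3, Foxd3, Foxd4, Foxe1, Foxh1, Foxi1, Foxl2, Foxn1, Foxp3 and Foxq1, with at most 86 counts over all libraries and at most 11 in any of them. Foxl2, a gene of the ovary and eyelid, had its 16 counts in 2 of the Ezh2a wild-type libraries alone. Of the tested genes, 20 exceeded 0.314 CPM in every library, and the other 5, which include Foxa1, Foxj1, Foxl1 and Foxo6, passed only through some libraries. Foxl1 passed through groups where it was high, so its differences between groups are bound up with the filter.

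Per length of annotated exon, levels spanned a wide range. Foxk2, a factor of the FOXK pair known for regulating glucose metabolism and for binding the BAP1 deubiquitinase complex, ranked first in all groups, at 20.16 ± 0.452 CPM per kb (SD, n = 3) for the Ezh2a wild type and 22.9 ± 0.668 for the Ezh2b wild type. Foxk1 and Foxp4 followed at 13.08 ± 0.718 and 12.84 ± 0.483 CPM per kb in the Ezh2a wild type, a gap smaller than their spread. Foxo3, Foxp1 and Foxm1 came next in that group, at 11.22, 10.67 and 8.803 CPM per kb. The mesenchymal genes lay lower, with Foxc1 at 4.18, Foxc2 at 1.618, Foxf1 at 1.142, Foxf2 at 0.850 and Foxd1 at 0.397 CPM per kb. Foxl1, Foxo6, Foxj1 and Foxa1 were at or under 0.175 CPM per kb in the Ezh2a wild type.

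**Figure D1:**
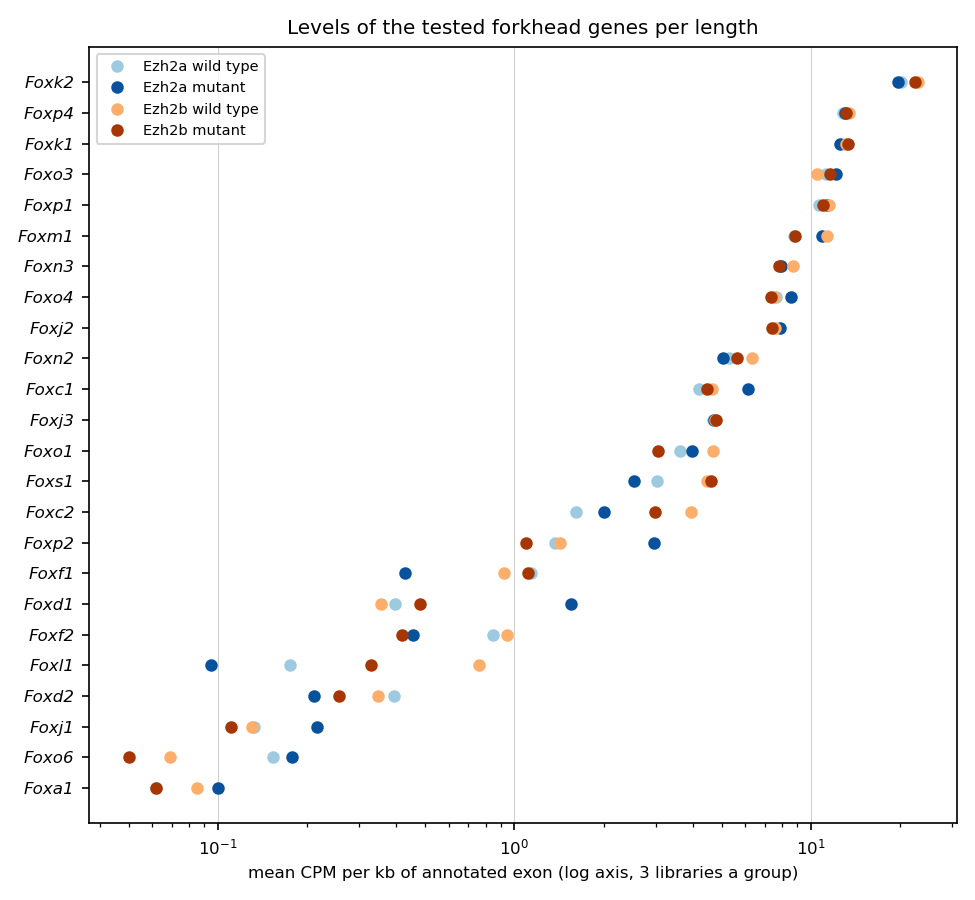
Mean level of 24 tested forkhead genes in CPM per kb of annotated exon (log axis), with 1 point for each group of 3 libraries. Foxk2 is highest in every group, and Foxl1 and Foxd1 spread widely between groups.

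In the Ezh2a mutant, 6 forkhead genes rose (Foxd1, Foxp2, Foxc1, Foxm1, Foxo4 and Foxo3) and 3 fell, Foxf1 and Foxf2 among them, while 16 did not pass. Over all tested genes 9.61% rose and 10.2% fell in this comparison. In the Ezh2b mutant, 1 rose (Foxo3) and 9 fell, among them Foxl1, Foxf2, Foxo1, Foxc2, Foxp2, Foxm1, Foxn2 and Foxn3, against backgrounds of 14% up and 12.1% down. The median log2 fold change of the tested members was 0.047 in the Ezh2a and −0.157 in the Ezh2b mutant, beside medians of −0.0015 and −0.0056 over all tested genes. Without the scaling for RNA composition, the split over all genes moved from 1509 up and 1609 down to 2061 and 1117 in the Ezh2a mutant, and from 2200 and 1905 to 1910 and 2525 in the Ezh2b mutant. Foxc2, Foxo1 and Foxp1 then also passed in the Ezh2a mutant (edgeR adjusted p = 0.0481, 0.0273 and 0.0138), which made 9 up. Foxf2 fell in both mutants, Foxo3 rose in both, and Foxm1 and Foxp2 rose in the Ezh2a mutant and fell in the Ezh2b mutant. The mutants were set against separate wild-type libraries, so these comparisons share none. Over all tested genes, mutant and wild-type libraries did not overlap for 37.6% in the Ezh2a and 37.2% in the Ezh2b set.

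**Figure D2:**
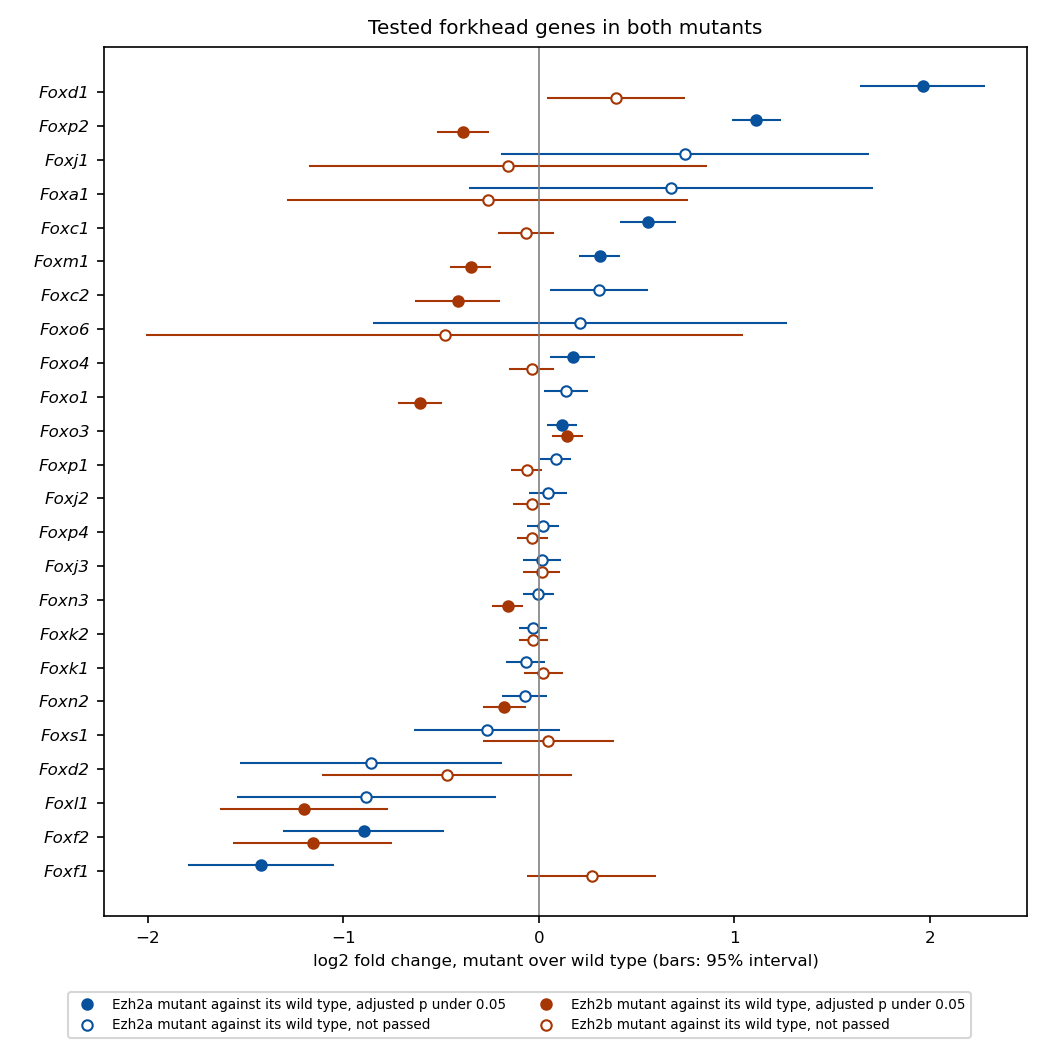
Log2 fold change of 24 tested forkhead genes, mutant over its own wild type, with 95% intervals from edgeR's quasi-likelihood fit and filled points for an adjusted p under 0.05. Foxd1, Foxp2 and Foxf1 lie farthest from each other in the 2 mutants, and Foxf2 and Foxl1 are below 0 in both.

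The FOXF genes come first among the mesenchymal members. Foxf1, which is required for lung and gut mesenchyme and for vessels, lies on chromosome 8 from 121084386 to 121088144 on the plus strand of GRCm38. Its level was 0.862, 1.20 and 1.02 CPM in Ezh2a mutant replicates 1 to 3 and 2.45, 2.74 and 3.08 CPM in the Ezh2a wild type. It was 2.56, 2.87 and 2.63 CPM in the Ezh2b mutant and 2.54, 1.93 and 2.23 CPM in the Ezh2b wild type. The Ezh2a mutant libraries were the 3 lowest of the 12. Against their own wild type alone, 37.6% of all tested genes did not overlap. The share for 1 group against all other libraries was not computed. Foxf1 fell by 1.42 on the log2 scale in the Ezh2a mutant (SE 0.18, edgeR adjusted p = 9.15e-06). In the Ezh2b mutant its log2 fold change was 0.27 (SE 0.16, edgeR adjusted p = 0.234). The difference between these effects was 1.69 (SE 0.24, edgeR adjusted p = 1.85e-05).

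Foxf2, the paralog with roles in palate, gut wall and brain pericytes, lies on chromosome 13 from 31625816 to 31631403 on the plus strand. It stood at 0.948, 1.24 and 1.05 CPM in the Ezh2a mutant and at 1.76, 1.84 and 2.43 CPM in the Ezh2a wild type. Values were 1.03, 1.05 and 0.888 CPM in the Ezh2b mutant against 2.38, 2.34 and 1.99 CPM in its wild type. All 6 mutant libraries were below all 6 wild-type libraries. Within the Ezh2a and Ezh2b sets, mutant and wild type did not overlap for 37.6% and 37.2% of all tested genes. The share over both sets at once was not computed. The log2 fold change was −0.90 (SE 0.20, edgeR adjusted p = 0.00257) in the Ezh2a mutant. It was −1.16 (SE 0.19, edgeR adjusted p = 1.16e-04) in the Ezh2b mutant. The difference between the effects did not pass (−0.26, 95% interval −0.84 to 0.32).

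Foxl1, a gene of the mesenchymal cells beneath the gut epithelium, lies on chromosome 8 from 121127940 to 121130644. Its level was 0.287, 0.201 and 0.279 CPM in the Ezh2a mutant and 0.536, 0.452 and 0.436 CPM in the Ezh2a wild type. The Ezh2b mutant libraries had 0.889, 0.832 and 0.951 CPM and their wild type had 2.41, 1.93 and 1.83 CPM. Mutant and wild-type libraries did not overlap in either set, as for 37.6% and 37.2% of all tested genes in the Ezh2a and Ezh2b sets. Foxl1 fell by 1.20 on the log2 scale in the Ezh2b mutant (SE 0.21, edgeR adjusted p = 1.55e-04). Its log2 fold change in the Ezh2a mutant was −0.88 (SE 0.32) and did not pass (edgeR adjusted p = 0.0562). The wild types also differed, by a log2 fold change of 2.09 (SE 0.23, edgeR adjusted p = 3.2e-07) for the Ezh2b over the Ezh2a wild type.

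Foxc1 and Foxc2 encode factors of skeletal, heart, eye and lymphatic development. Foxc1 lies on chromosome 13 from 31806633 to 31812476 and Foxc2 on chromosome 8 from 121116171 to 121118895, both on the plus strand. Foxc1 stood at 34.4, 37.4 and 36.2 CPM in the Ezh2a mutant and at 24.5, 24.95 and 23.8 CPM in its wild type. In the Ezh2b set it was 26.8, 26.9 and 24.4 CPM in the mutant and 27.4, 23.9 and 30.05 CPM in the wild type. The Ezh2a mutant libraries were higher than all others. Between this mutant and its own wild type, 37.6% of all tested genes did not overlap. Foxc1 rose by 0.56 on the log2 scale in the Ezh2a mutant (SE 0.068, edgeR adjusted p = 6.5e-06). In the Ezh2b mutant its log2 fold change was −0.066 (95% interval −0.21 to 0.077), and the difference between effects was −0.62 (SE 0.096, edgeR adjusted p = 5.48e-05).

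Foxc2 had 5.49, 4.95 and 5.92 CPM in the Ezh2a mutant and 4.29, 4.65 and 4.30 CPM in its wild type. The Ezh2b mutant had 8.25, 7.29 and 8.88 CPM and its wild type 9.32, 10.9 and 12.0 CPM. Libraries of mutant and wild type did not overlap in either set, with the mutant higher in the Ezh2a set and lower in the Ezh2b set. Such a gap was found for 37.6% of all tested genes in the Ezh2a and 37.2% in the Ezh2b set. Foxc2 fell by 0.41 on the log2 scale in the Ezh2b mutant (SE 0.10, edgeR adjusted p = 0.00518). The log2 fold change of 0.31 (SE 0.12) in the Ezh2a mutant did not pass (edgeR adjusted p = 0.0787). The difference between effects did, at −0.72 (SE 0.16, edgeR adjusted p = 0.00173).

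These mesenchymal genes form 2 clusters. On chromosome 8, the noncoding gene Fendrr is transcribed away from Foxf1 with a gap of 1.3 kb, and Foxc2 and Foxl1 follow downstream with gaps of 28.0 and 9.0 kb. Fendrr is an RNA of lateral mesoderm that is known to bind Polycomb repressive complex 2. Its level was 0.307 ± 0.101 CPM (SD, n = 3) in the Ezh2a mutant and 0.593 ± 0.040 in its wild type, and at 0.577 ± 0.119 in the Ezh2b mutant and 0.514 ± 0.176 in its wild type. Its log2 fold changes of −0.94 (edgeR adjusted p = 0.0829) and 0.22 (edgeR adjusted p = 0.697) did not pass. Mthfsd, an unrelated coding gene between Foxf1 and Foxc2, did not pass in either mutant (log2 fold changes 0.007 and −0.15). Of 5 tested coding genes listed as forkhead neighbours, 1 rose in the Ezh2a and 2 in the Ezh2b mutant, and 0 fell. These make 20% and 40% called, beside 19.8% and 26.1% of all tested genes.

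In the Ezh2a mutant, Foxf1 was the only member of the chromosome 8 cluster that passed. Foxf1 fell, and Foxc2 was at 0.31 and Foxl1 at −0.88 on the log2 scale without passing. In the Ezh2b mutant Foxl1 and Foxc2 fell and Foxf1 was at 0.27 without passing. On chromosome 13, Foxf2 and Foxc1 are 175.2 kb apart and Foxq1, which was not tested, lies 64.8 kb before Foxf2. Foxf2 fell and Foxc1 rose in the Ezh2a mutant. Gmds, the coding gene 7.1 kb beyond Foxc1, rose by 0.51 on the log2 scale in the Ezh2a mutant (SE 0.069, edgeR adjusted p = 2.39e-05) and had −0.052 (edgeR adjusted p = 0.648) in the Ezh2b mutant. No strand-marking step is named in the labels' protocol, so reads of genes that overlap on opposite strands may not have been told apart. The exons of Foxf1, Foxf2, Foxo1, Foxj2 and Ezh2 overlap model genes on the opposite strand.

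**Figure D3:**
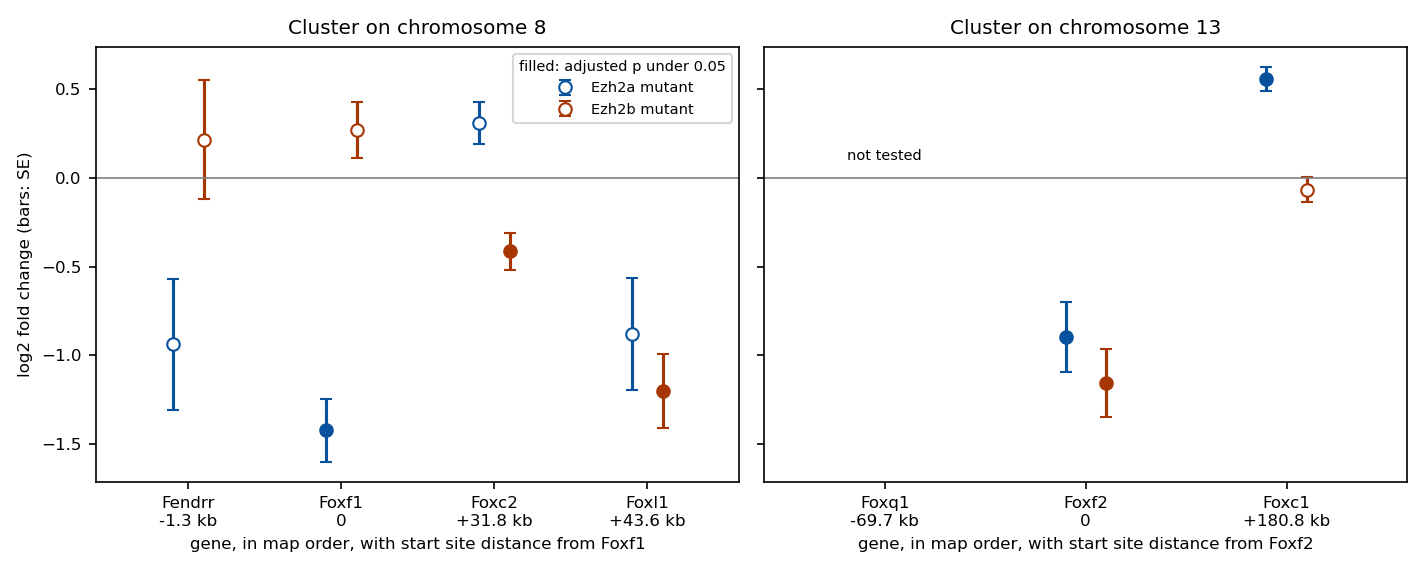
Log2 fold change (bars are SE) of the genes in the 2 forkhead clusters, in map order, with each start site's distance from that of Foxf1 or Foxf2 in kb under the name. Filled points have an edgeR adjusted p under 0.05, and the Ezh2a mutant shows Foxf1 and Foxf2 below 0 beside Foxc2 and Foxc1 above 0.

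Foxd1, a marker and regulator of kidney stroma, lies elsewhere on chromosome 13 (98354242 to 98359305, plus strand). Its level was 7.50, 7.73 and 8.27 CPM in the Ezh2a mutant against 1.94, 2.19 and 1.90 CPM in the Ezh2a wild type. The Ezh2b mutant had 2.38, 1.99 and 2.95 CPM and its wild type 1.51, 1.69 and 2.18 CPM. The Ezh2a mutant libraries stood far above the other 9, whose groups lay close together. Between this mutant and its own wild type, 37.6% of all tested genes did not overlap. Foxd1 rose by 1.96 on the log2 scale in the Ezh2a mutant (SE 0.15, edgeR adjusted p = 1.92e-08), the largest rise among the members. In the Ezh2b mutant the log2 fold change of 0.40 (SE 0.17) did not pass (edgeR adjusted p = 0.0951). Without Ezh2b wild-type replicate 3 it was 0.60 and passed (edgeR adjusted p = 0.0228), and without Ezh2b mutant replicate 2 it was 0.55 (edgeR adjusted p = 0.0304). The difference between effects was −1.57 (SE 0.23, edgeR adjusted p = 2.78e-05). The paralog Foxd2 had 0.547 ± 0.224 and 1.02 ± 0.284 CPM (SD, n = 3) for the Ezh2a mutant and wild type, with a log2 fold change of −0.86 that did not pass (edgeR adjusted p = 0.0669). The neighbouring noncoding gene Foxd2os fell by 0.90 in the Ezh2a mutant (SE 0.29, edgeR adjusted p = 0.0328).

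The 250 bases before the RefSeq start sites of Foxf2, Foxc1 and Foxd1 are shown because these genes moved in different directions in the Ezh2a mutant, and because Polycomb repressive complex 2 is known to occupy CpG-rich starts. Sequences are from RefSeq on GRCm38.p6, with CpG dinucleotides in capitals.
Foxf2 (chr13:31625566-31625815, + strand): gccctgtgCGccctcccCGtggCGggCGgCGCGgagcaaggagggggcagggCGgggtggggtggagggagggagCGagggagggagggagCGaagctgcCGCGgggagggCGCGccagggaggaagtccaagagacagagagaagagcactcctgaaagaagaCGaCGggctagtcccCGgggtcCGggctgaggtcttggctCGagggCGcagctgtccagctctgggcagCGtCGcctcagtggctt
Foxc1 (chr13:31806396-31806645, + strand): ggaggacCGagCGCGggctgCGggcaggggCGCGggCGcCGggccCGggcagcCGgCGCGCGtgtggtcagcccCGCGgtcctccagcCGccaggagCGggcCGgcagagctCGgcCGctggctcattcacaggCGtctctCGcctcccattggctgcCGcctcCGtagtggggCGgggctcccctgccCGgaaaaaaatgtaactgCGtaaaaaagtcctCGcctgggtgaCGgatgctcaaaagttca
Foxd1 (chr13:98353995-98354244, + strand): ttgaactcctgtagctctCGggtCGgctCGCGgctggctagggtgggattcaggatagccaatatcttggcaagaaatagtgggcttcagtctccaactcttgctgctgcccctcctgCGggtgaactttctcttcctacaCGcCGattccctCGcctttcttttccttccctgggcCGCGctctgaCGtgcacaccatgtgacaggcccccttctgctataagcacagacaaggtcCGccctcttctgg
They hold 21, 29 and 12 CpG dinucleotides. Over all 32851 promoters of the table the median was 6, and these 3 lay at percentiles 83.7, 93.2 and 66.5. The 28 members with an entry have 33 promoters, of which the 15 of tested members had a median of 21 and the 18 of members not tested had 9.5. The core GTAAACA, a forkhead binding sequence searched on both strands, was present in 1 of the 33 member promoters (Foxa1), or 3.03%, beside 3.17% of all promoters.

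Cell type markers moved with some of these groups. Called markers stand beside 19.8% and 26.1% of all tested genes called in the Ezh2a and Ezh2b mutants. Between the wild types that share was 42.3%. Cartilage markers took 0.0196% to 0.0210% of counts in Ezh2a mutant libraries and 0.00376% to 0.00396% in the Ezh2a wild type, and 9 of 11 tested markers rose. Col2a1, the main collagen of cartilage, rose by 6.75 on the log2 scale (edgeR adjusted p = 3.64e-18). Snorc was at 0 in all groups, and Matn1 and Cnmd were at 0 in the Ezh2a wild type. In the Ezh2b set, cartilage markers took 0.00334% to 0.0037% in the mutant and 0.00355% to 0.00377% in the wild type. Of the 11 tested, 2 rose and 3 fell in the Ezh2b mutant. Epithelial markers were lower in the Ezh2a mutant, at 0.000972% to 0.00107% against 0.00263% to 0.00271%, with 3 of 5 tested markers down and Esrp1 and Grhl2 at 0 in all groups. Their summed share was also lower in the Ezh2b mutant, at 0.00166% to 0.00196% against 0.00240% to 0.00293%, with 2 markers up and 1 down. Fibroblast markers moved as well, with 10 of 12 up and 1 down in the Ezh2b mutant (median log2 fold change 0.20), 3 up and 3 down in the Ezh2a mutant, and 10 of 12 lower in the Ezh2b than in the Ezh2a wild type (median −0.41). Macrophage markers took 0.0470% to 0.0505% of counts in the Ezh2b mutant and 0.0104% to 0.0115% in its wild type, and all 15 rose. In the Ezh2a set they took 0.159% to 0.170% in the mutant and 0.168% to 0.174% in the wild type. The summed share of endothelial markers was lower in both mutants, at 0.00160% to 0.00177% against 0.00211% to 0.00241% in the Ezh2a set and 0.00117% to 0.00126% against 0.00194% to 0.00213% in the Ezh2b set, with Cldn5 at 0 in all groups. The 5 tested endothelial markers went both ways, with 1 up and 1 down in the Ezh2a mutant and 2 up and 2 down in the Ezh2b mutant. Neural crest and glial markers took 0.000823% to 0.000941% of counts in the Ezh2a mutant against 0.000585% to 0.000734% in its wild type. Of the 6 tested, 1 rose in that mutant, or 16.7%, under the share of all tested genes. In the Ezh2b set these markers took 0.000613% to 0.000738% in the mutant against 0.000421% to 0.000512%, where 3 of 6 rose and 0 fell. The part of these cells in the forkhead differences was not tested. In bulk RNA, a change in the number of cells of a type and a change in RNA per cell cannot be told apart.

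Among the FOXP genes, which encode repressors that pair with each other, Foxp2 changed most. It is known in humans for its role in speech and acts in brain and lung development, and it spans chromosome 6 from 14901349 to 15441977. Foxp2 stood at 48.8, 50.1 and 46.7 CPM in the Ezh2a mutant and at 21.4, 23.3 and 22.7 CPM in the Ezh2a wild type. The Ezh2b mutant had 16.8, 18.7 and 18.2 CPM and its wild type 22.7, 22.0 and 25.4 CPM. Both wild types shared a range, with the Ezh2a mutant above it and the Ezh2b mutant below. Mutant and own wild type did not overlap for 37.6% (Ezh2a) and 37.2% (Ezh2b) of all tested genes. Foxp2 rose by 1.11 on the log2 scale in the Ezh2a mutant (SE 0.059, edgeR adjusted p = 9.09e-11) and fell by 0.39 in the Ezh2b mutant (SE 0.063, edgeR adjusted p = 9.1e-05). The difference between effects was −1.50 (SE 0.087, edgeR adjusted p = 1.3e-10).

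The other FOXP genes moved little. Foxp1, at 147 to 158 CPM on average in the groups, had log2 fold changes of 0.087 and −0.063 that did not pass, and their difference of −0.15 passed narrowly (SE 0.053, edgeR adjusted p = 0.0433). That call was lost without 10 of the 12 libraries, taken out singly. Foxp4 had 0.022 and −0.034, with 95% intervals of −0.059 to 0.10 and −0.11 to 0.046. Foxp3, the regulator of regulatory T cells, was under the filter, and 6 of 8 T cell markers were at 0 in all groups. Of 10 tested FOXP partners, 0 passed in the Ezh2a mutant and 1, or 10%, in the Ezh2b mutant, beside 19.8% and 26.1% of all tested genes. In the Ezh2a mutant, 3 had an unadjusted edgeR p under 0.05 and DESeq2 called 1. The gene called in the Ezh2b mutant was Nfatc2, a calcium-responsive factor of immune cells, which rose by 1.37 (edgeR adjusted p = 5.08e-04).

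**Figure D4:**
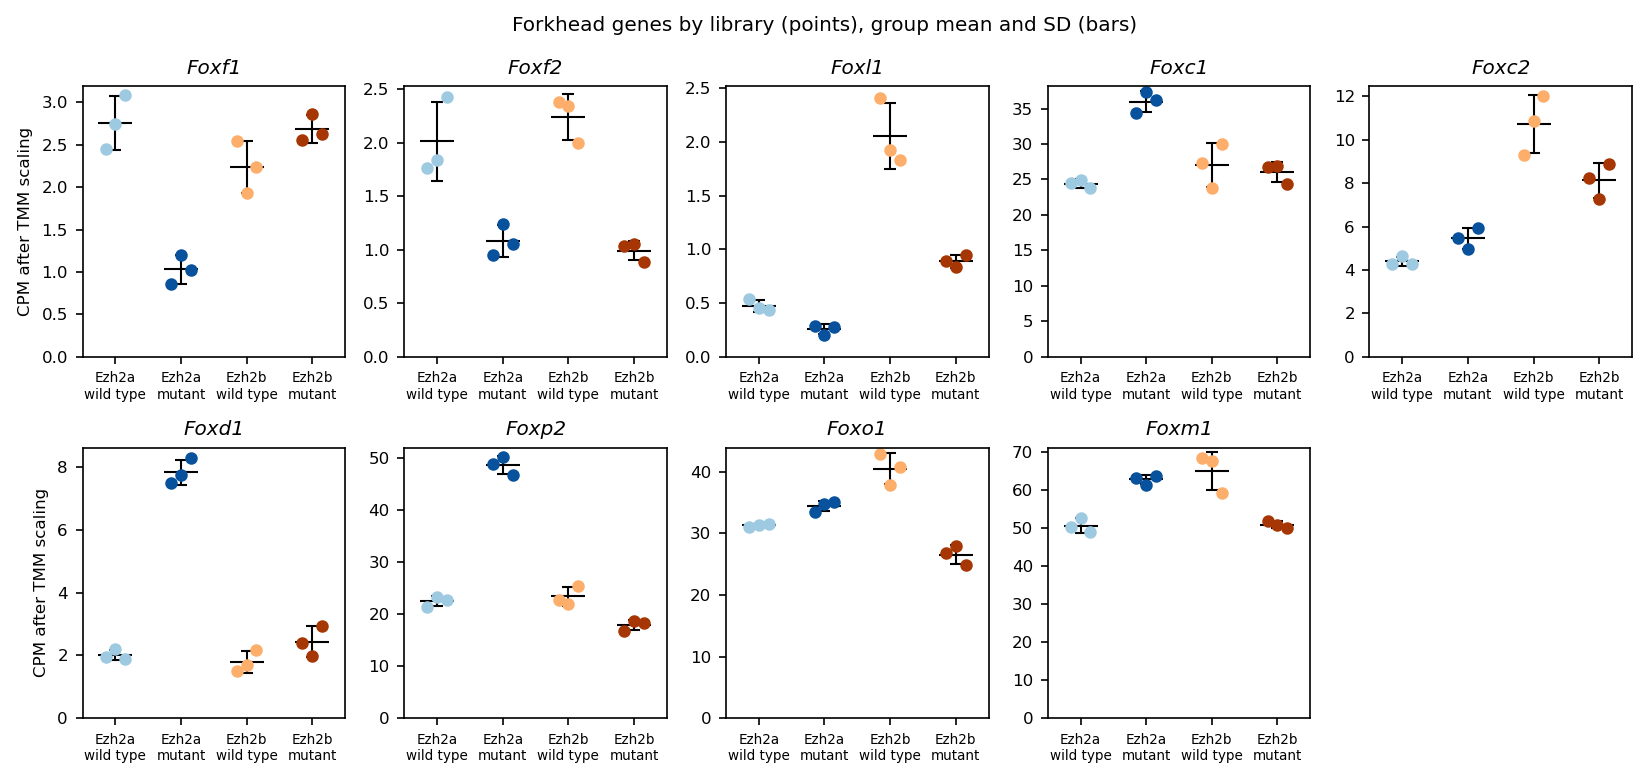
Level of 9 forkhead genes in each library (points, CPM after TMM scaling, axes from 0), with group means and SD as bars (n = 3). Foxf2 is lower in both mutants than in both wild types, Foxd1 and Foxp2 stand out in the Ezh2a mutant, and Foxl1 is higher in the Ezh2b set.

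Of the FOXO genes, Foxo1 showed the largest change that passed. It lies on chromosome 3 from 52268336 to 52353221 and carries insulin and growth factor signals to genes of metabolism and survival. Its level was 33.4, 34.8 and 35.1 CPM in the Ezh2a mutant and 31.1, 31.4 and 31.5 CPM in its wild type. The Ezh2b mutant had 26.8, 28.0 and 24.9 CPM and its wild type 42.8, 37.8 and 40.8 CPM. The Ezh2b mutant was the lowest group and the Ezh2b wild type the highest. Foxo1 fell by 0.61 on the log2 scale in the Ezh2b mutant (SE 0.053, edgeR adjusted p = 3.6e-08). The Ezh2a log2 fold change of 0.14 (SE 0.054) did not pass (edgeR adjusted p = 0.0845), and the difference between effects was −0.74 (SE 0.076, edgeR adjusted p = 3.23e-07).

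Foxo3, a factor of quiescence and longevity pathways, rose slightly in both mutants, by 0.12 (SE 0.037, edgeR adjusted p = 0.029) and 0.15 (SE 0.037, edgeR adjusted p = 0.0054) on the log2 scale. Its group means were 92.2 ± 3.40 and 85.0 ± 0.685 CPM (SD, n = 3) in the Ezh2a mutant and wild type, and 87.6 ± 1.06 and 79.2 ± 2.38 in the Ezh2b set. Foxo4 rose by 0.17 in the Ezh2a mutant (SE 0.055, edgeR adjusted p = 0.0311) and had −0.036 in the Ezh2b mutant (95% interval −0.15 to 0.080). The Ezh2a call for Foxo3 was lost without 4 of the 6 libraries of that set, taken out singly, and that for Foxo4 without 3 of them. Foxo6 was near the filter and did not pass in either mutant.

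FOXO activity is set mostly by phosphorylation, which RNA does not measure. Among 26 listed FOXO regulators, the Ezh2a mutant had 3 up and 4 down (26.9% called, beside 19.8% of all tested genes), and the Ezh2b mutant had 6 up and 6 down (46.2%, beside 26.1%). Sgk1, a kinase that phosphorylates FOXO proteins, fell by 0.43 in the Ezh2a and 0.44 in the Ezh2b mutant. Irs1, an adaptor of the insulin receptor, rose by 0.45 in the Ezh2a mutant, and Pik3r1, a regulatory subunit of PI3-kinase, rose by 0.43 in the Ezh2b mutant. Among 24 tested FOXO target genes, the Ezh2a mutant had 6 up and 8 down (58.3% called), and the Ezh2b mutant 7 up and 4 down (45.8%), beside the same 19.8% and 26.1%. Pdk4, a brake on pyruvate use, rose by 1.05 in the Ezh2a mutant (edgeR adjusted p = 1.05e-06). Gadd45a, a growth arrest gene, rose by 0.39 in the Ezh2b mutant (edgeR adjusted p = 3.61e-06). Fbxo32, a muscle ubiquitin ligase, rose in both, by 0.31 and 0.36. The median log2 fold changes of the targets were −0.030 and 0.090, and the lowest were −0.29 and −0.36.

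Foxm1 lies on chromosome 6 from 128362967 to 128376146 and its exons overlap a model gene and Tex52 on the same strand. It stood at 63.2, 61.4 and 63.8 CPM in the Ezh2a mutant and at 50.2, 52.7 and 49.0 CPM in its wild type. In the Ezh2b set it was 51.8, 50.9 and 49.996 CPM in the mutant and 68.4, 67.6 and 59.2 CPM in the wild type. Mutant and wild type did not overlap in either set, and their order was opposite. Of all tested genes, 37.6% in the Ezh2a and 37.2% in the Ezh2b set did not overlap either. Foxm1 rose by 0.31 on the log2 scale in the Ezh2a mutant (SE 0.050, edgeR adjusted p = 1.65e-04) and fell by 0.35 in the Ezh2b mutant (SE 0.050, edgeR adjusted p = 2.04e-05). The difference between effects was −0.66 (SE 0.071, edgeR adjusted p = 6.39e-07).

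The listed FOXM1 targets and partners, genes of late cell division and of the MuvB complex, moved with it. Of 27 tested, 20 rose and 0 fell in the Ezh2a mutant, with a median log2 fold change of 0.24; 74.1% passed, beside 19.8% of all tested genes. In the Ezh2b mutant 0 rose and 23 fell, with a median of −0.34; 85.2% passed, beside 26.1% of all. Ccna2, which encodes cyclin A2, rose by 0.41 and fell by 0.45, and Bub1, a spindle checkpoint kinase, fell by 0.44 in the Ezh2b mutant. Ube2c and Cenpf, a ubiquitin-conjugating enzyme of mitosis and a centromere protein, rose by 0.39 each in the Ezh2a mutant. The wild types differed as well, with 25 of 27 higher in the Ezh2b than in the Ezh2a wild type and a median of 0.35. Leaving out Ezh2b wild-type replicate 3 left 22 lower in the Ezh2b mutant and 22 higher in the Ezh2b wild type. Over all alternatives, the number up in the Ezh2a mutant ran from 17 to 20 and the number down in the Ezh2b mutant from 22 to 24.

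**Figure D5:**
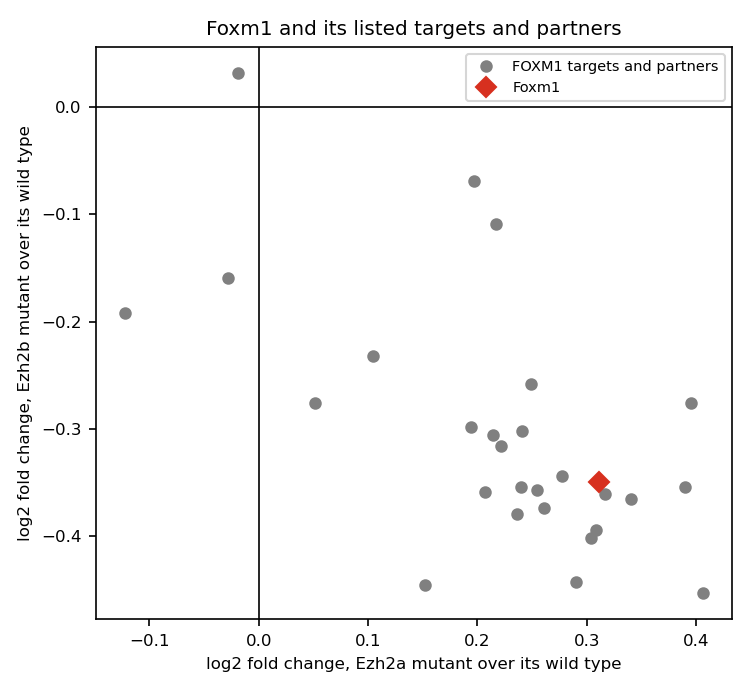
Log2 fold change of 27 listed FOXM1 targets and partners (grey) and of Foxm1 (diamond) in the Ezh2a mutant (horizontal axis) and the Ezh2b mutant (vertical axis). Most points lie at lower right, above 0 in the Ezh2a and below 0 in the Ezh2b mutant, with Foxm1 among them at 0.31 and −0.35.

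In the remaining subfamilies, Foxn2, Foxn3, Foxk1, Foxk2, Foxj2 and Foxj3 changed little. Foxn3, a repressor linked to the cell cycle checkpoint, fell by 0.16 in the Ezh2b mutant (SE 0.037, edgeR adjusted p = 0.00308), and its log2 fold change in the Ezh2a mutant was −0.0019 (95% interval −0.081 to 0.077). The difference between these effects was −0.16 (SE 0.053, edgeR adjusted p = 0.0337), a call lost without 7 of the 12 libraries, taken out singly. Foxn2 fell by 0.18 in the Ezh2b mutant (SE 0.054, edgeR adjusted p = 0.0192), though its libraries overlapped, and this call was lost without 4 of the 6 libraries of that set, taken out singly. Foxk1, Foxk2, Foxj2 and Foxj3 had log2 fold changes between −0.067 and 0.047 in both mutants, and none of these passed. Foxs1, a gene of vessel-associated cells, had −0.27 (95% interval −0.64 to 0.11) and 0.049 (−0.29 to 0.38), and neither passed. Foxj1, which directs the growth of motile cilia, and Foxa1, an opener of chromatin in endoderm, were near the filter, with wide intervals of −0.19 to 1.69 and −0.35 to 1.71 in the Ezh2a mutant.

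Partner lists of these subfamilies are read against the 19.8% and 26.1% of all tested genes called in the Ezh2a and Ezh2b mutants. Of 11 genes of the BAP1 complex that bind FOXK proteins or act with them, the Ezh2a mutant had 2 up, led by Asxl3 at 0.66, and 0 down, and the Ezh2b mutant had 2 up and 1 down, or 18.2% and 27.3% called, near those shares. Of 9 tested FOXJ1 cilium genes, 2 rose in the Ezh2a mutant, namely the cilium regulators Rfx2 (0.75) and Rfx3 (0.71), and Rfx3 fell by 0.27 in the Ezh2b mutant. These make 22.2% and 11.1% called. Of 8 tested partners of FOXH1, a mediator of nodal signals, 0 passed in the Ezh2a mutant, while Gdf1 fell by 0.91 and Acvr2a rose by 0.14 in the Ezh2b mutant, or 25% called. In the Ezh2a mutant, 1 had an unadjusted edgeR p under 0.05 and DESeq2 called 0. Of 11 tested hedgehog pathway genes, the Ezh2a mutant had 4 up and 0 down, and the Ezh2b mutant 3 up and 5 down, or 36.4% and 72.7% called. Hhip, a secreted hedgehog inhibitor, rose by 1.65 and 1.11. Gas1, a coreceptor, fell by 0.72 in the Ezh2b mutant.

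The test of the difference between both effects found 1 member with a higher Ezh2b than Ezh2a effect (Foxf1) and 8 with a lower one (Foxd1, Foxp2, Foxo1, Foxc2, Foxm1, Foxc1, Foxn3 and Foxp1), against 14.7% and 11.9% of all tested genes. Without scaling for RNA composition, the split over all genes in this test moved from 2305 higher and 1863 lower to 1723 and 2787.

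Between the wild types, 10 members were higher in the Ezh2b set and 1 lower, against the 20.4% and 21.8% of all genes given above. The 10 include Foxl1, Foxc2, Foxs1, Foxo1, Foxm1, Foxn2, Foxk2, Foxn3 and Foxp1, and the lower gene was Foxo3, by 0.10 on the log2 scale (edgeR adjusted p = 0.0341), a call lost without 5 of the 6 libraries, taken out singly. The call for Foxp1 was lost without 4 of them. Foxc2 was higher by 1.29 on the log2 scale (SE 0.11, edgeR adjusted p = 1.16e-08), Foxs1 by 0.54 (SE 0.17, edgeR adjusted p = 0.0127) and Foxo1 by 0.37 (SE 0.053, edgeR adjusted p = 1.01e-05). This comparison and that of the Ezh2b mutant share the Ezh2b wild-type libraries. Of the members that fell in the Ezh2b mutant, Foxl1, Foxo1, Foxc2, Foxm1, Foxn2 and Foxn3 are among the 10. For the first 4, levels in all groups are given above. The same overlap was not counted over all tested genes. The genetic background, the embryos and any handling that separate the sets cannot be told apart here. The sum over all 45 members was 980.0 to 999.2 CPM without TMM scaling in Ezh2a mutant libraries and 886.0 to 901.2 in their wild type, and 895.8 to 899.1 in Ezh2b mutant libraries and 968.9 to 980.9 in theirs.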

How the data were processed

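The authors deposited raw counts per gene symbol for 12 poly-A RNA libraries of mouse embryonic fibroblasts. Tools named in the submitters' processing notes are HISAT2 2.1.0, fastp 0.21.0, edgeR 4.2.1 and StringTie 2.1.5, with the GRCm38 build. How reads were counted, and with which strand setting, is not given in the sources used here. The table holds 3357 values of 1 but 13267 of 2, so a fragment may have been counted for each mate, and halved counts were tried. Precision is that of 3 libraries a group.

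Genes were filtered with filterByExpr by group (15708 left), scaled by TMM and fitted in all 12 libraries with 1 mean per group in edgeR 4.0.16 (R 4.3.3, 8 residual degrees of freedom). Contrasts were tested with glmQLFTest and Benjamini-Hochberg adjustment over every tested gene, at a threshold of 0.05. "Rose" and "fell" mean an adjusted p under 0.05. Standard errors are absolute log2 fold changes divided by the root of F. The 95% intervals use the fit's total degrees of freedom. The fit was run on counts simulated with its own dispersions, which is no independent check. Changes smaller than those put in, and changed genes of low level, were not covered. DESeq2 1.42.0, other scalings, no filter, a replicate block and leaving out each library were alternatives.

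The members and gene lists were chosen with earlier results of these data known, so no list count is independent support. Values per library are given for members with an adjusted p under 0.05 in either mutant or in the difference, an absolute log2 fold change of at least 0.5 in any of these and an average log2 CPM of at least 0. From each other list at most 3 passing genes per mutant were named, by size. Some genes and sequences that meet these rules are not reported here, though counts include them. Positions and lengths are those of GENCODE M21.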

Additional observations from a re-analysis of the deposited data

Results flagged for a closer look

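The effect on 9 of 25 tested forkhead genes differed between the mutants by edgeR's quasi-likelihood test of the difference. These are 36%, beside 26.5% of all tested genes. Values are given as the Ezh2b minus the Ezh2a log2 fold change. Foxd1 had −1.57, Foxp2 −1.50 and Foxf1 1.69, the 3 largest. Foxo1 had −0.74 and Foxc2 −0.72. Foxm1 had −0.66 and Foxc1 −0.62. Foxn3 had −0.16 and Foxp1 −0.15, with adjusted p-values of 0.0337 and 0.0433.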

How the results depend on the processing

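With the replicate number as a block, the members called remained 6 up and 3 down in the Ezh2a mutant, 1 and 9 in the Ezh2b mutant, 1 and 8 in the difference and 10 and 1 between the wild types. Same-numbered libraries did not deviate together (correlations of −0.0216 to 0.022), so the numbers were not taken as pairs. With only the libraries of the contrast, the 1 member lower in the Ezh2b wild type became 0. Leaving out single libraries gave 1 to 2 members up in the Ezh2b mutant and 0 to 1 lower in the Ezh2b wild type. All other counts stayed within 1.5 times. Single values under all alternatives were compared only for members that passed in either mutant or in the difference. Of these values, 792 kept their outcome, whether passing or not, 49 lost a call, 14 gained one and 0 reversed. The differences for Foxp1 and Foxn3 and the Ezh2b wild-type differences of Foxo3 and Foxp1 were among those lost. Depth limits Foxl1, Foxa1, Foxj1, Foxo6 and the 20 members not tested. The FOXM1 list was counted under each alternative after the data had been seen.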
